A study of Mus musculus with 17 samples.

Results

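The growth hormone and STAT5 pathway genes described here are 10 in number: the receptor gene Ghr, the transcription factor genes Stat5a and Stat5b, the feedback genes Socs2 and Cish, the genes of the secreted products Igf1 and Igfals, and the male-biased target genes Hsd3b5, Slco1a1 and Elovl3. They were chosen by gene symbol for their roles in the pathway, with results of these data already known. All 10 were found in both count tables, among 19151 genes in the HFD table, 24233 genes in the WD table and 24352 genes in either. Hsd3b5 and Slco1a1 were known to be among the largest falls in knockout liver under HFD, so their values in that comparison are given as a description with no test.

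Growth hormone, released by the pituitary, binds its receptor on hepatocytes and activates the kinase JAK2, which phosphorylates STAT5A and STAT5B. STAT5 then enters the nucleus and raises the expression of Igf1, of inhibitors of the pathway such as Socs2 and Cish, and of many sex-biased liver genes. In male rodents growth hormone is released in pulses, and the pulses keep a set of male-biased genes high and a set of female-biased genes low.

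RNA-seq was performed on 17 libraries from male mice in the C57BL6 background, in order to compare liver-specific knockout of NgBR with WT liver under 2 lipid-rich diets. NgBR, encoded by Nus1, is a subunit of cis-prenyltransferase, the enzyme that makes the lipid precursor of dolichol, the carrier of glycans for protein glycosylation. N-LKO mice carried a loxP-flanked NgBR allele and Cre under the albumin promoter, which is active in hepatocytes. The paper names endothelial, stellate and Kupffer cells as liver cells that express NgBR. All mice were fed standard chow for 8 weeks and then a high-fat diet (HFD) or a high-fat, high-cholesterol Western-type diet (WD) for 16 weeks.

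The groups were 4 WT HFD livers, 4 N-LKO HFD livers, 3 WT WD livers, 3 N-LKO WD livers and 3 tumors from N-LKO mice fed the WD. The labels call the libraries biological replicates, but they do not name the animals, nor say whether tumors and N-LKO WD livers came from the same mice, nor which alleles the WT mice carried. HFD and WD libraries are in separate tables, so diet and table cannot be told apart and no level was compared between diets.

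Library totals were 9096110 to 12215784 estimated counts under HFD and 15494731 to 20200618 under WD, and levels are given as CPM, counts relative to the library total scaled by TMM. Nus1 was at 88.0 CPM in the WT HFD livers and 35.0 CPM in the N-LKO HFD livers, and at 94.4, 46.7 and 35.8 CPM in the WT WD livers, N-LKO WD livers and tumors, with no overlap between WT and N-LKO libraries under either diet. The 4 Y-linked genes examined were at 7.18 CPM or more in every library and Xist was at 1.90 CPM or less. The 7 hepatocyte marker genes measured summed to 31300 CPM or more in every library, tumors included. WT WD liver replicate 2 stood apart from the other WD livers in the members described below, and members' results that rest on it are given with and without it. Its departure was not confined to the members. Its TMM factor was 0.806, against 0.941 to 1.149 in the other WD libraries, and it had the fewest detected genes of the WD libraries (21918).

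Per kilobase of exon, the members ranged widely in level. In WT HFD liver the mean was 65.6 CPM per kb for Ghr, 61.1 for Elovl3, 53.8 for Igf1, 36.2 for Slco1a1, 32.7 for Hsd3b5, 17.1 for Igfals, 6.22 for Stat5b, 2.35 for Cish, 1.88 for Stat5a and 1.61 for Socs2. Igfals and Stat5b, and Stat5b and Cish, lay farther apart than the SD of either gene, whereas each other pair of neighbors in this order lay within the larger SD of the pair.

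**Figure D1:**
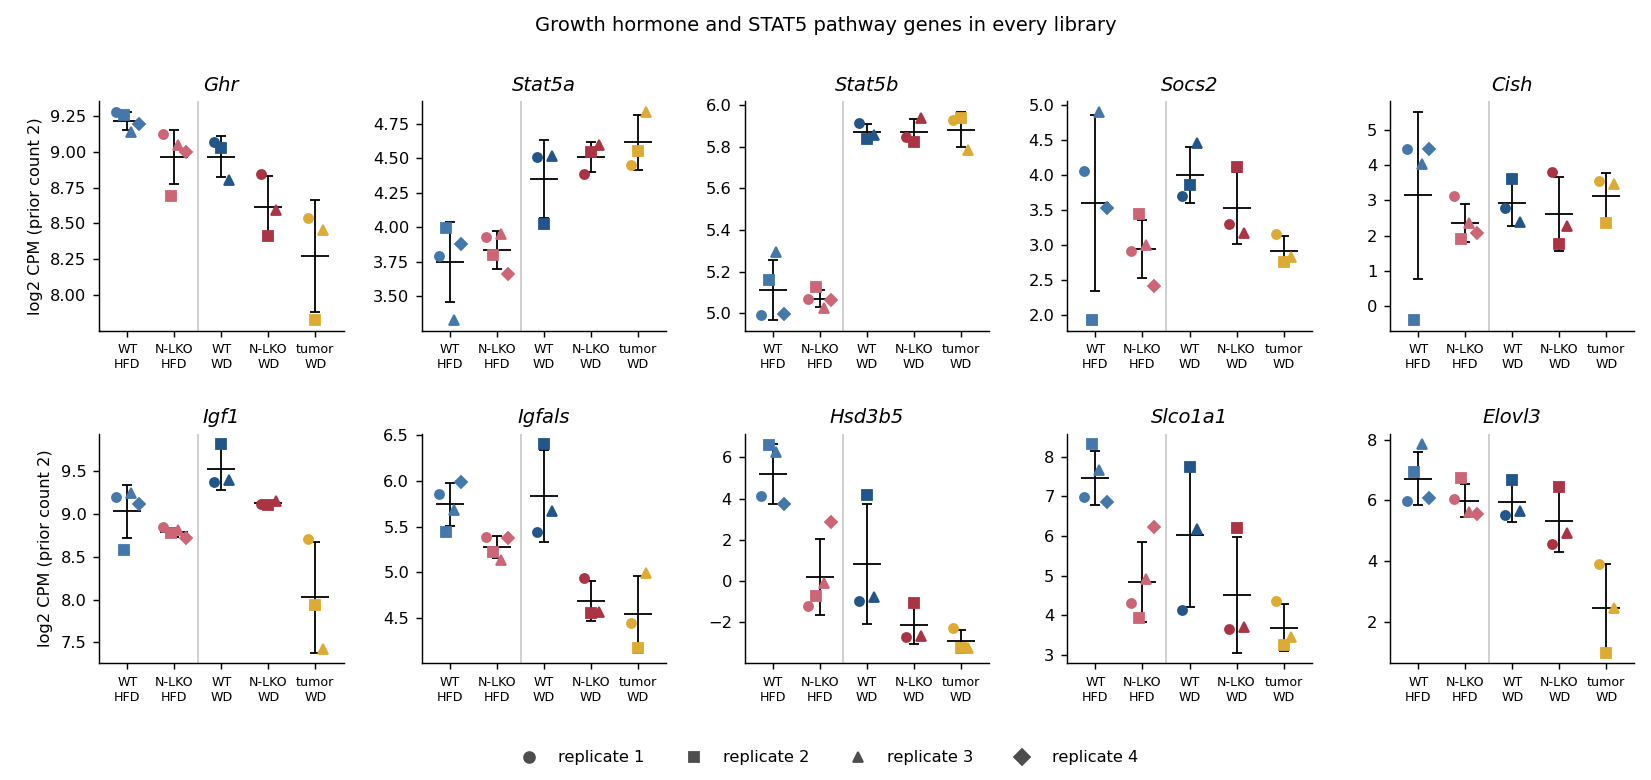
Levels of the 10 genes in each of the 17 libraries, on a log2 CPM scale with a prior count of 2 (each panel has its own vertical axis). Symbols are libraries, shaped by replicate number, the long dash and bars are the group mean and SD, and the grey line parts the HFD table from the WD table. Stat5a and Stat5b hardly differ between genotypes, Igfals lies lower in N-LKO than in WT liver under both diets, and Hsd3b5 and Slco1a1 spread widely within groups.

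Ghr, the receptor, lies on chromosome 15 from 3317760 to 3583492 on the minus strand (GRCm38). Under HFD it was at 620.4, 610.1, 562 and 584 CPM in the WT livers and at 558, 414, 528 and 510.1 CPM in the N-LKO livers. Every N-LKO library lay below every WT library, with a log2 fold change of −0.24 ± 0.10 (SE, edgeR adjusted p 0.178). On the WD it was at 536, 521 and 447 CPM in the WT livers, 459, 340.0 and 385 CPM in the N-LKO livers, and 372, 227 and 351 CPM in the tumors. The WT and N-LKO livers overlapped (−0.34 ± 0.21, edgeR adjusted p 0.499), and the tumors lay below all WT livers without passing with edgeR (−0.66 ± 0.21, adjusted p 0.0571). This difference of Ghr passed with DESeq2 (adjusted p 0.0115) and limma-voom (adjusted p 0.0499). In bulk tissue, fewer hepatocytes and less RNA per hepatocyte cannot be told apart, and this holds for every comparison below.

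Stat5a and Stat5b encode the transcription factors that carry the signal and are neighbors on chromosome 11, Stat5a from 100859351 to 100885169 on the plus strand and Stat5b from 100780731 to 100850724 on the minus strand. Stat5b was at 31.7, 35.5, 39.0 and 31.8 CPM in the WT HFD livers and at 33.3, 34.8, 32.4 and 33.3 CPM in the N-LKO HFD livers. Under WD its group means were 58.4 ± 1.54 CPM in the WT livers, 58.4 ± 2.47 CPM in the N-LKO livers and 58.9 ± 3.44 CPM in the tumors (SD, n = 3 each). The groups overlapped in every comparison, and the 95% confidence intervals of the log2 fold change were −0.24 to 0.15 for N-LKO against WT under HFD, −0.24 to 0.24 under WD and −0.22 to 0.26 for tumor against WT. Stat5a was at 13.7, 15.7, 9.85 and 14.5 CPM in the WT HFD livers and at 15.1, 13.8, 15.3 and 12.4 CPM in the N-LKO HFD livers. Under WD it was at 22.7, 16.1 and 22.8 CPM in the WT livers, 20.8, 23.2 and 24.1 CPM in the N-LKO livers and 21.8, 23.4 and 28.5 CPM in the tumors. It overlapped in every comparison. Its log2 fold change was 0.06 ± 0.14 under HFD, 0.15 ± 0.17 under WD and 0.26 ± 0.17 for tumor against WT, with edgeR adjusted p of 0.831, 0.721 and 0.311. Of the 45-base windows of Stat5a transcripts, 8.95% also occur in Stat5b, and 11.9% of those of Stat5b occur in Stat5a, so reads can be split between them.

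STAT5 binds the palindromic motif TTCNNNGAA, and RefSeq promoters (GRCm38.p6, 250 bases before to 50 bases after a start) were searched for it on both strands, which for a palindrome give the same matches. Of the 10 genes, 8 had promoter entries, with 13 promoters in all, and 3 of the 13 held the motif, against 8.3% of 32851 mouse promoters. Cish held 2 matches, at the start and 11 bases after it, a number reached by 0.457% of promoters. Igfals held 1 match in each of 2 promoters, at 236 and 58 bases before the start, and Slco1a1 held none. The promoters of Igf1, the other secreted product, and of Ghr, Stat5a, Stat5b and Hsd3b5 held none, nor did the remaining promoter of Igfals. Socs2 and Elovl3 had no entry, so no pattern by role is read from the matches. The sequences of Cish, Igfals and Slco1a1 are shown as examples with and without the motif. Capitals mark the motif.
Cish, chr9:107296409-107296708, plus strand: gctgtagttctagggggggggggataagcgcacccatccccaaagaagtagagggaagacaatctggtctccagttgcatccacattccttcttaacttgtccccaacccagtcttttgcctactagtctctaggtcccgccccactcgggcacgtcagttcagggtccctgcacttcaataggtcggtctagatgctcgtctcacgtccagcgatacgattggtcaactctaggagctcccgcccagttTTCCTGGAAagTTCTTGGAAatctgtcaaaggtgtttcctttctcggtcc
Igfals, chr17:24877981-24878280, plus strand: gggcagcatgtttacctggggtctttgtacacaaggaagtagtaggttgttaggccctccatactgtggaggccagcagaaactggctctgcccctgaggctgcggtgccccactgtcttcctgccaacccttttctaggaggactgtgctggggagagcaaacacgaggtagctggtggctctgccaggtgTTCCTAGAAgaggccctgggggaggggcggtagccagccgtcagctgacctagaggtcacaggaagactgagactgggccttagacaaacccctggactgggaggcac
Slco1a1, chr6:141946913-141947212, minus strand: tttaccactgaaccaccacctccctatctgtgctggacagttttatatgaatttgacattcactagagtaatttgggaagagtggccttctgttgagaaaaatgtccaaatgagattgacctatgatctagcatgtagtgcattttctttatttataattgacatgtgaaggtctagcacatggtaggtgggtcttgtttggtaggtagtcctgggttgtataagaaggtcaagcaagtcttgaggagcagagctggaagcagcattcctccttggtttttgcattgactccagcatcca
A match is a run of letters and was not shown here to be a binding site.

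Cish and Socs2 encode inhibitors that STAT5 induces and that act back on the receptor and its kinase. Cish was at 21.7, 0.573, 16.2 and 21.9 CPM in the WT HFD livers and at 8.52, 3.54, 4.89 and 3.99 CPM in the N-LKO HFD livers. WT HFD replicate 2 was the lowest of all 8 libraries, whereas the other 3 WT livers were higher than every N-LKO liver. Over all 8 libraries the log2 fold change of −1.52 ± 0.63 did not pass (edgeR adjusted p 0.173), and without WT replicate 2 it was −1.93 with an edgeR adjusted p of 0.0177. That fit was the only 1 of 16 alternatives to pass, and the fold change ran from −1.93 to −0.67 over them. The highest adjusted p was 0.744, with limma-voom. Under WD the groups overlapped throughout, with 6.72, 12.1 and 5.06 CPM in the WT livers, 13.8, 3.32 and 4.73 CPM in the N-LKO livers and 11.6, 5.06 and 10.9 CPM in the tumors. The log2 fold change of Cish was −0.13 ± 0.53 for N-LKO against WT under WD and 0.20 ± 0.53 for tumor against WT, with edgeR adjusted p of 0.933 and 0.827. Without WT replicate 2 the former was 0.30.

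Socs2, on chromosome 10 from 95385362 to 95417180, was at 16.5, 3.63, 29.8 and 11.3 CPM in the WT HFD livers and at 7.36, 10.7, 7.82 and 5.17 CPM in the N-LKO HFD livers. WT replicate 2 was again the lowest library, and the fold change of −0.97 ± 0.46 did not pass with it (edgeR adjusted p 0.234) or without it (−1.30, edgeR adjusted p 0.0685). Under WD the level was 12.97, 14.4 and 21.9 CPM in the WT livers, 9.78, 17.3 and 8.94 CPM in the N-LKO livers and 8.81, 6.67 and 7.05 CPM in the tumors. WT and N-LKO livers overlapped (−0.45 ± 0.28, edgeR adjusted p 0.510), and all tumors lay below all livers of either genotype. The test was passed by tumor against WT (−1.12 ± 0.29, edgeR adjusted p 0.0298) and not by tumor against N-LKO liver (−0.67 ± 0.28, edgeR adjusted p 0.247). The former call was lost without WT replicate 2 (−1.22, edgeR adjusted p 0.0688) and without any 1 of WT replicate 3, tumor replicate 2 and tumor replicate 3, the highest edgeR adjusted p being 0.0865 without WT replicate 3.

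Igf1 encodes the growth factor through which much of growth hormone's action on the body runs, and Igfals encodes the acid-labile subunit that holds it in the circulation. Igf1, on chromosome 10 from 87858265 to 87937042, was at 589.7, 382, 605 and 555 CPM in the WT HFD livers and at 459, 438, 448 and 422 CPM in the N-LKO HFD livers. As with Cish and Socs2, WT replicate 2 was the lowest library and the other 3 WT livers were above all N-LKO livers. The log2 fold change was −0.27 ± 0.13 (edgeR adjusted p 0.243) with that library and −0.40 (edgeR adjusted p 0.0499) without it. The fit without that library was the only 1 of 16 alternatives to pass. Over these the fold change of Igf1 ran from −0.40 to −0.08. The highest adjusted p came with an offset for length and GC content.

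Under WD, Igf1 stepped down from WT liver to N-LKO liver to tumor with no overlap between groups. It was at 664, 902 and 672 CPM in the WT livers, 554, 549.8 and 569 CPM in the N-LKO livers, and 418, 246 and 172 CPM in the tumors. Tumor against WT passed (−1.42 ± 0.29, edgeR adjusted p 0.0155), tumor against N-LKO liver did not (−1.001 ± 0.28, edgeR adjusted p 0.1199), and N-LKO against WT liver did not (−0.42 ± 0.28, edgeR adjusted p 0.534). Without tumor replicate 1, which had the highest level of the tumors, tumor against N-LKO liver gave −1.42 with an edgeR adjusted p of 0.0046. Without WT replicate 2, tumor against WT gave −1.26 with an edgeR adjusted p of 0.0591, and when only these 2 groups were fitted the call was lost as well (edgeR adjusted p 0.0513). For N-LKO against WT liver the value without that library was −0.26.

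Igfals, on chromosome 17 from 24865997 to 24882010, was lower in every N-LKO liver than in every WT liver under both diets. Under HFD it was at 57.8, 43.4, 51.2 and 63.5 CPM in WT and at 41.6, 37.3, 35.1 and 41.3 CPM in the N-LKO livers, a log2 fold change of −0.47 ± 0.12 with an edgeR adjusted p of 0.0419. That call was marginal: it was lost on leaving out any library but WT replicate 2, in 7 of 8 such fits. In those 7 the fold change ran from −0.51 to −0.38 and the edgeR adjusted p up to 0.113. Under WD it was at 43.3, 84.5 and 50.8 CPM in the WT livers, 30.5, 23.4 and 23.6 CPM in the N-LKO livers and 21.8, 17.97 and 31.9 CPM in the tumors. The N-LKO livers were lower than WT by −1.20 ± 0.28 on the log2 scale, which did not pass with edgeR (adjusted p 0.353) and passed with DESeq2 (adjusted p 0.0136). Without WT replicate 2, which had the highest level, this difference was −0.87 by edgeR. Tumors overlapped N-LKO livers (−0.12 ± 0.27, edgeR adjusted p 0.864) and were lower than WT livers (−1.32 ± 0.28, edgeR adjusted p 0.0172), a call lost without WT replicate 2 (−0.98, edgeR adjusted p 0.0594) and when only these 2 groups were fitted (edgeR adjusted p 0.0503).

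Hsd3b5, a male-specific 3-beta-hydroxysteroid dehydrogenase family gene of liver, and Slco1a1, an organic anion transporter gene, are male-biased genes whose level depends on the male pattern of growth hormone. Hsd3b5, on chromosome 3 from 98618634 to 98630252, was at 17.1, 95.01, 77.2 and 13.1 CPM in the WT HFD livers and at 0.248, 0.411, 0.760 and 7.18 CPM in the N-LKO HFD livers. The groups did not overlap, yet both spread widely, and the highest N-LKO liver, replicate 4, lay nearer to the lowest WT liver than to the other N-LKO livers on the log scale. The log2 fold change was −4.49 ± 0.86, and it was −6.78 without N-LKO replicate 4. Of the 45-base windows of Hsd3b5, 23.8% also occur in other genes, mostly in its paralog Hsd3b4, so its counts can hold reads of that gene.

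Under WD, Hsd3b5 was near the detection limit in most libraries, and it was not tested because too few libraries passed the count filter. It had 6, 268 and 8 counts in WT livers, 1, 8 and 1 in N-LKO livers, and 2, 0 and 0 in tumors, so that WT replicate 2 alone held most of the counts. Relative to a floor of 3 counts per library, tumors were at least 40.7-fold lower than the mean of WT livers, a mean set by replicate 2. The highest floor among the tumors was 0.156 CPM, and the other 2 WT livers were at 0.411 and 0.477 CPM. With no count filter the fitted value for tumor against WT was −7.38 (edgeR adjusted p 0.0296), which depends on the prior count and is no bound. Floors cover counting error only.

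Slco1a1, on chromosome 6 from 141907282 to 141946962, was at 126.01, 318, 204 and 115.5 CPM in the WT HFD livers and at 19.5, 15.1, 30.2 and 75.3 CPM in the N-LKO HFD livers, again with no overlap. The log2 fold change was −2.44 ± 0.47, and N-LKO replicate 4 was the highest N-LKO liver as for Hsd3b5. Under WD it was at 17.4, 213 and 72.3 CPM in the WT livers, 12.4, 74.1 and 13.02 CPM in the N-LKO livers and 20.4, 9.36 and 10.9 CPM in the tumors. N-LKO and WT livers overlapped (−1.60 ± 0.87, edgeR adjusted p 0.4664), and so did tumors and WT livers, since WT replicate 1 lay below tumor replicate 1 (−2.89 ± 0.92, edgeR adjusted p 0.0588 and DESeq2 adjusted p 0.0294). Without WT replicate 2, the value for N-LKO against WT was −0.44, and for tumor against WT it was −1.73.

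Elovl3, a male-biased fatty acid elongase gene on chromosome 19 from 46131897 to 46135694, followed another course. Under HFD it was at 63.1, 122, 231 and 66.9 CPM in WT and at 66.2, 108, 48.4 and 47.2 CPM in the N-LKO livers, and the groups overlapped (−0.84 ± 0.39, edgeR adjusted p 0.227). Under WD it was at 45.3, 103 and 49.9 CPM in the WT livers, 23.4, 86.9 and 30.3 CPM in the N-LKO livers and 14.8, 1.86 and 5.31 CPM in the tumors. WT and N-LKO livers overlapped (−0.49 ± 0.66, edgeR adjusted p 0.764), and without WT replicate 2 the difference was −0.03. All tumors were below all livers, with a log2 fold change of −2.68 ± 0.72 against N-LKO livers (edgeR adjusted p 0.105) and of −3.17 ± 0.73 against WT livers (edgeR adjusted p 0.0216). The latter was lost without WT replicate 2 (−2.71, edgeR adjusted p 0.0762) and without tumor replicate 3 (−2.995, edgeR adjusted p 0.0560). Without tumor replicate 1, the former passed (−3.72, edgeR adjusted p 0.0138).

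**Figure D2:**
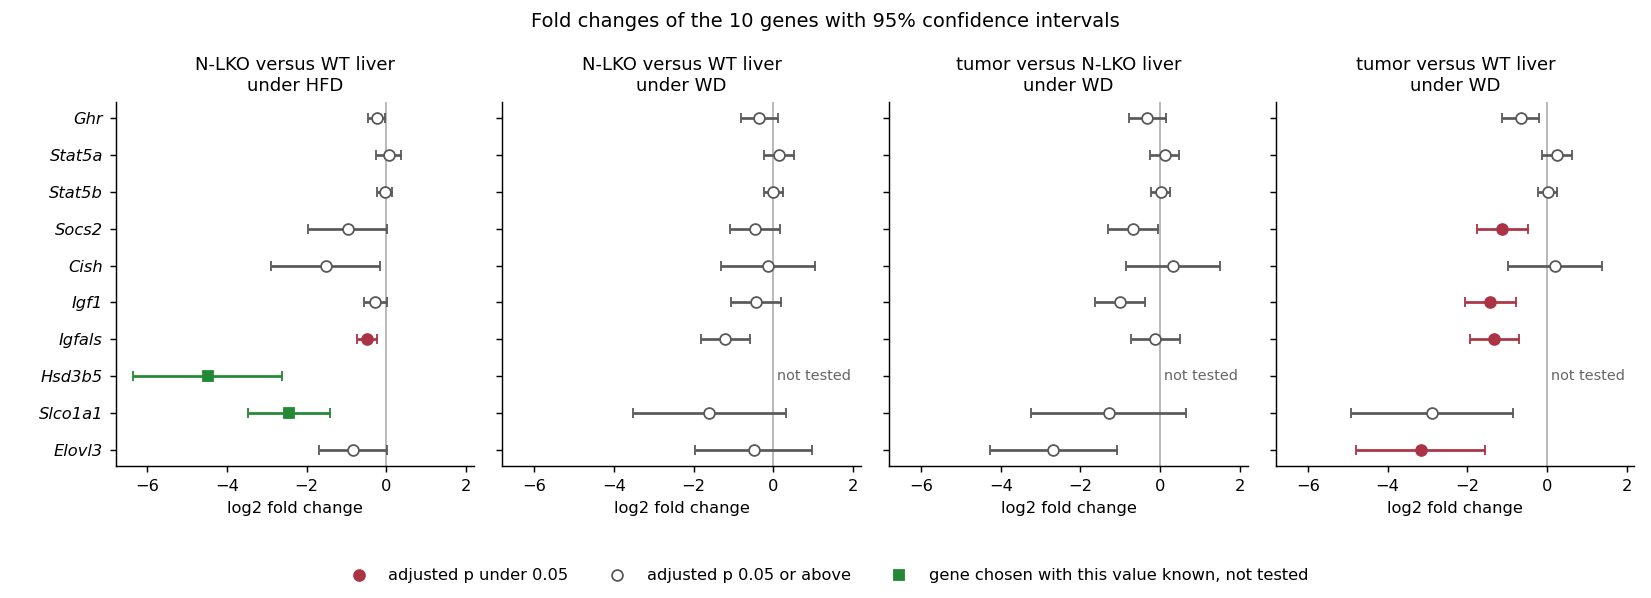
Log2 fold change of each of the 10 genes (points, with 95% confidence intervals as bars) in the 4 comparisons, from the edgeR fits across all genes. Red points had an adjusted p under 0.05, and green squares are Hsd3b5 and Slco1a1 under HFD, which were chosen with those values known. In tumor against WT liver, Socs2, Igf1, Igfals and Elovl3 lie below 0 at −1.12, −1.42, −1.32 and −3.17, and Stat5b lies at 0.02.

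Counted over the list under HFD, 3 of the 10 genes were lower at the threshold, namely Igfals, Hsd3b5 and Slco1a1, and none was higher. Over all 13460 genes tested, 4.84% passed in either direction and 2.29% passed as lower, and since Hsd3b5 and Slco1a1 were chosen with this contrast known, nothing is read from the count. The groups did not overlap for 4 of the 10 (Ghr, Igfals, Hsd3b5 and Slco1a1, all lower), against 7.41% of all genes for this direction. The median log2 fold change was −0.66 over the 10 genes and −0.01 over all genes. Hsd3b5 and Slco1a1 also enter the non-overlap count and this median, so nothing is read from either. When N-LKO replicate 1 was left out 0 of the 10 passed and 181 genes passed in all, and when N-LKO replicate 3 was left out these numbers were 0 and 276.

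For N-LKO against WT liver under WD, 0 of the 9 members tested passed with edgeR or limma-voom and 1 with DESeq2, Igfals. Over all 17829 genes tested with edgeR, 0 genes or 0% passed. At an unadjusted p under 0.05 there was 1 member, Igfals, against 12.4% of all genes. Groups did not overlap for Igf1 and Igfals, both lower, against 13.6% of all genes in this direction. The median log2 fold change was −0.42 over the members and 0.01 over all genes. The genotype by diet interaction, which tests whether the N-LKO effect differs between diets over the 14 livers, was passed by 1.62% of 15850 genes and by 0 of the 10 members with edgeR, DESeq2 and limma-voom. The only member with an unadjusted p under 0.05 was Igfals, at −0.70 ± 0.27 (edgeR adjusted p 0.157).

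For tumor against N-LKO liver, 0 of 9 members passed with edgeR and limma-voom, against 0.499% of all genes with edgeR. With DESeq2, 2 members passed, Igf1 and Elovl3, and 1021 of the 17829 genes. At an unadjusted p under 0.05 there were 3 members, Socs2, Igf1 and Elovl3, against 18.3% of all genes. The same 3 did not overlap between the groups, all lower in tumors, against 11.6% of all genes. For tumor against WT liver, 4 of 9 members passed, all lower, against 14.9% of all genes in either direction and 6.80% as lower. DESeq2 called 6 members, also Ghr and Slco1a1, and limma-voom called 5, also Ghr. Groups did not overlap for 5 members, these 4 and Ghr, against 16.4% of all genes. The median log2 fold change was −1.12 over the members and 0.04 over all genes. Without WT replicate 2, 0 members passed and 569 genes in all passed. These comparisons share their WT or N-LKO livers, so the values of one do not stand apart from those of another.

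Libraries of the same group differed strongly in several members, and the 2 largest departures lay in WT libraries. The SD of log2 CPM within HFD groups was 1.72 for Cish, 1.66 for Hsd3b5, 0.93 for Socs2 and 0.86 for Slco1a1, where the median of all tested genes was 0.21. Stat5b, at 0.11 under HFD and 0.06 under WD, was among the steadiest genes under WD. Of tested genes, 0.550% had a lower or equal spread under WD and 12.35% under HFD. WT HFD replicate 2 was lowest of its group in Cish, Socs2, Igf1 and Igfals and highest in Hsd3b5 and Slco1a1. In the same library Bcl6, a repressor that competes with STAT5 at shared sites, was at 61.3 CPM, against 7.28, 11.2 and 4.37 CPM in the other WT HFD livers. WT WD replicate 2 was highest of its group in Igf1, Igfals, Cish, Hsd3b5, Slco1a1 and Elovl3 and lowest in Stat5a, and Bcl6 was at 8.61 CPM there against 15.3 and 40.9 CPM in the other WT WD livers.

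**Figure D3:**
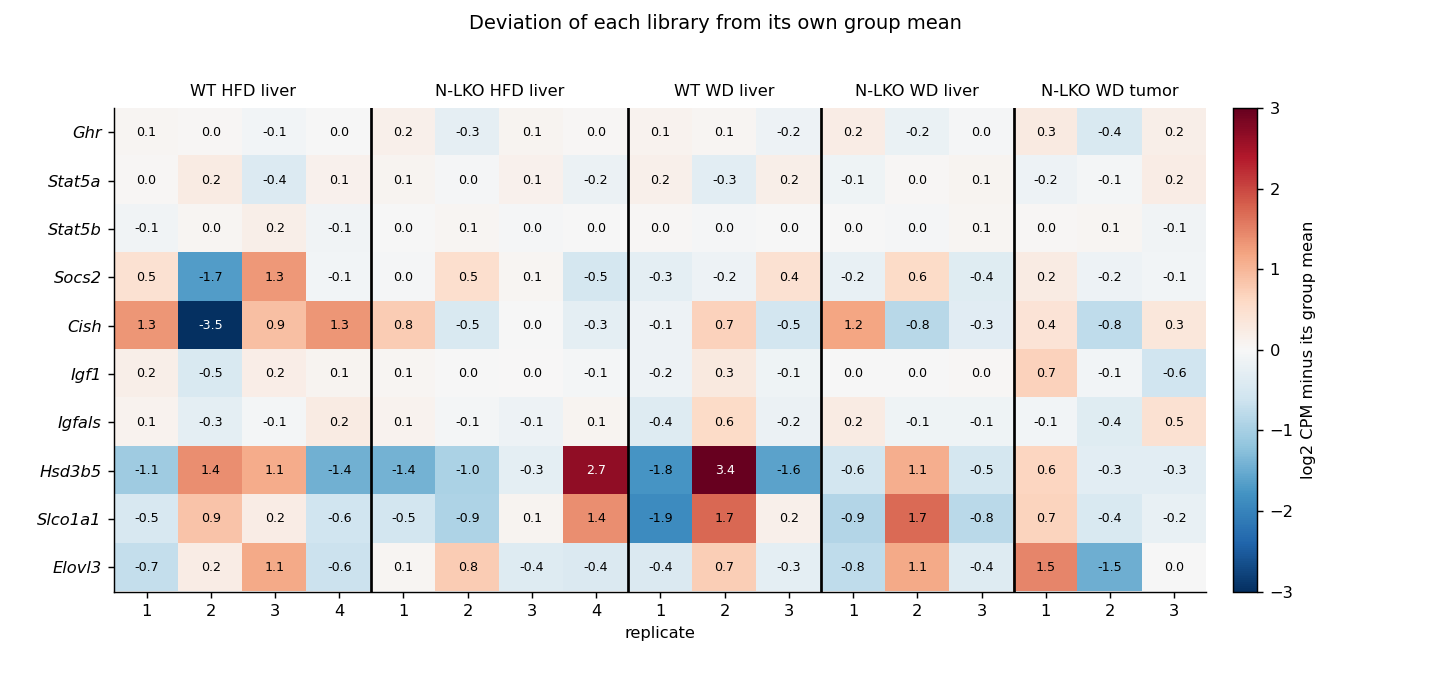
Log2 CPM of each gene minus the mean of its group, for the 17 libraries in columns (parted by group, with replicate numbers below). Red is above and blue below the group mean, with the color scale ending at 3 on either side. WT HFD replicate 2 is 3.5 below its group mean in Cish and 1.4 above it in Hsd3b5, and WT WD replicate 2 is 3.4 above its group mean in Hsd3b5 and 1.7 above it in Slco1a1.

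Whether members rose and fell together within groups was examined in 6 pairs, using the deviations of the 17 libraries from their group means, which removes the group differences. Hsd3b5 and Slco1a1 varied together (Pearson r = 0.852, Spearman rho = 0.803), with permutation p of 8.0e-05 and 0.00067 and adjusted p of 0.00048 and 0.00402 over the 6 pairs. After removal of N-LKO HFD replicate 4 and WT WD replicate 2, the libraries farthest from the median of Hsd3b5, r was 0.771 over 15 libraries. It was 0.951 within the 8 HFD libraries and 0.8196 within the 9 WD libraries, and leaving out any of the 17 libraries kept it past the threshold (0.794 to 0.920). Under WD, Hsd3b5 had 8 counts or fewer in every library but WT replicate 2. Its deviations there thus rest on a few counts and on the prior count of 2.

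The other pairs did not pass. Slco1a1 and Elovl3 gave r = 0.497 and rho = 0.490 (permutation p 0.0430 and 0.0508, adjusted p 0.0860 and 0.126), with r of −0.05 within HFD and 0.727 within WD, and 0.315 without WT WD replicate 2 and N-LKO WD replicate 2. Hsd3b5 and Elovl3 gave r = 0.438 and rho = 0.443 (permutation p 0.0409 and 0.0632, adjusted p 0.0860 and 0.126), with r of 0.197 within HFD, 0.596 within WD and 0.580 without the same libraries as for Hsd3b5 and Slco1a1. Both pairs passed without N-LKO HFD replicate 2 (r of 0.615 and 0.516) and without N-LKO HFD replicate 4 (0.618 and 0.610).

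Socs2 and Cish gave r = 0.584 and rho = 0.179 (permutation p 0.301 and 0.589, adjusted p 0.451 and 0.707). That r rested on WT HFD replicates 2 and 3, without which it was −0.12, and it was 0.778 within HFD and −0.40 within WD. Igf1 and Igfals gave r = 0.0841 and rho = 0.429 (permutation p 0.881 and 0.211, adjusted p 0.881 and 0.316), with r of 0.643 within HFD, −0.06 within WD and 0.683 without tumor replicates 1 and 3. Igf1 and Ghr gave r = 0.145 and rho = 0.132 (permutation p 0.751 and 0.7096, adjusted p 0.881 and 0.7096), with r of −0.08 within HFD, 0.209 within WD and 0.105 without the same tumors.

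**Figure D4:**
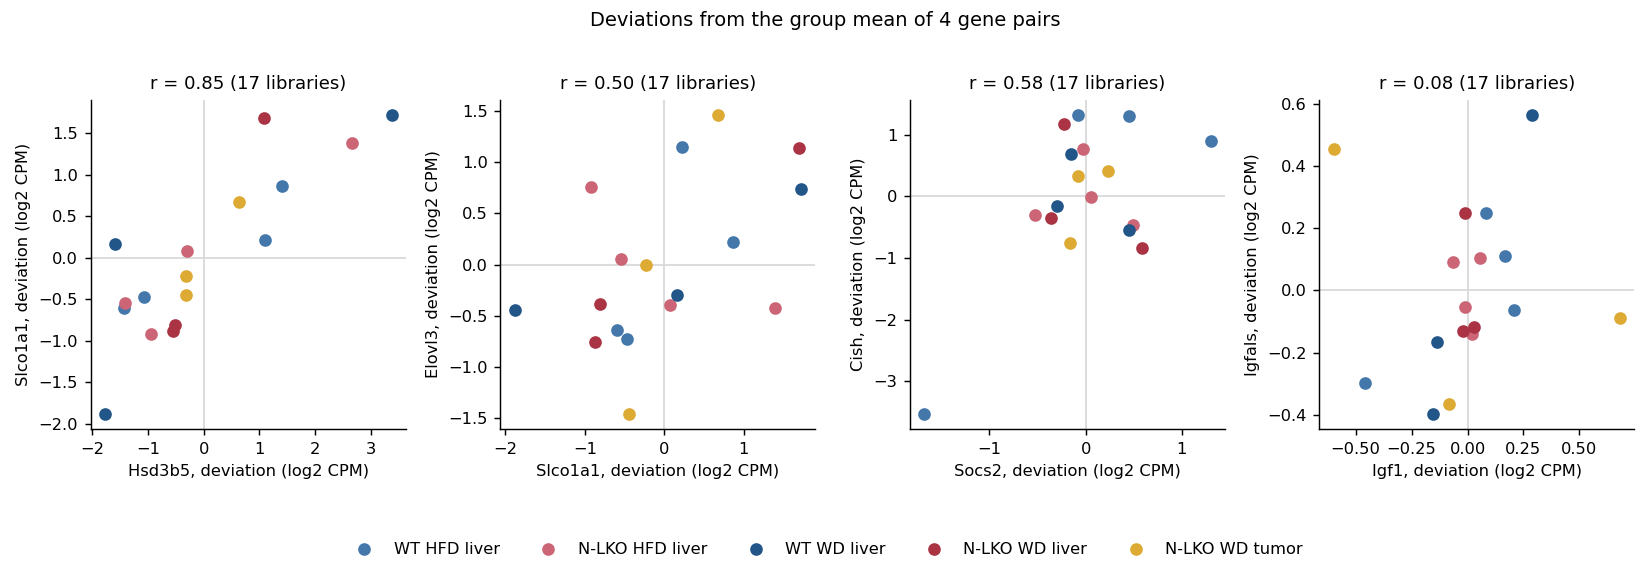
Deviation from the group mean of 4 of the 6 gene pairs, in log2 CPM on both axes, with 1 point per library colored by group and Pearson r over 17 libraries above each panel. For Hsd3b5 and Slco1a1 the points of all 5 groups lie along 1 rising band (r = 0.85), whereas for Socs2 and Cish a single WT HFD liver at the lower left stands alone (r = 0.58). The WD points of Hsd3b5 rest on 8 counts or fewer, except in WT replicate 2.

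Of 8640 genes at 5 CPM or more in both tables, the genes among the 2 with deviations most like each member included C1s1, a complement protease gene, for Ghr (r of 0.940), Tmem170b and Hmgn5 for Igf1 (0.938 and 0.906), and Rhbdd2 for Igfals (0.892). For Hsd3b5 they were C6 and Mup12 (0.893 and 0.878) and for Slco1a1 Mup7 and Mup15 (0.879 and 0.861). C6 encodes a complement component and the Mup genes encode major urinary proteins. For Elovl3 they were Eif1 and Rhou (0.931 and 0.907). For Cish they were Onecut1 (0.882), the gene of the liver factor HNF6, and Ulk3 (0.882), and for Socs2 Rest and Smarcb1 (0.843 and 0.8203), which fell to 0.190 and 0.332 within WD. For Stat5a they were Ate1 and Cd36 (0.881 and 0.839) and for Stat5b Ube2s and Ccar1 (0.861 and 0.856). These values are among the 2 highest of 8640 for each member over 17 libraries and are given as a description.

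Other genes of the pathway, from a list of 18 that holds the kinase Jak2, other STAT and SOCS genes, phosphatases, adaptors, Igf1r, Igfbp3, Bcl6 and Onecut1, were counted in the same way. Of the 17 tested, 0 passed for N-LKO against WT under HFD, 0 under WD and 0 for tumor against N-LKO liver. For tumor against WT, 2 were lower, against 6.80% of all genes. At an unadjusted p under 0.05 there were 4 under HFD, 4 under WD, 0 for tumor against N-LKO liver and 5 for tumor against WT. The shares of all genes were 22.7%, 12.4%, 18.3% and 32.55%. The summed level of the 18 genes was 478 to 561 CPM in the WT and 419.5 to 446 CPM in the N-LKO livers under HFD, and 829 to 970.1 CPM and 741 to 799 CPM under WD, with no overlap under either diet. Within these sums the mean of Onecut1 alone fell from 68.0 to 20.1 CPM under HFD and from 76.3 to 24.5 CPM under WD. The sums therefore rest in part on 1 gene. The 2 genes lower for tumor against WT were Sh2b1, an adaptor of JAK2 (35.1 to 20.7 CPM, −0.76 ± 0.16, edgeR adjusted p 0.0176), and Igfbp3, the main carrier of IGF1 (42.0 to 25.5 CPM, −0.72 ± 0.20, edgeR adjusted p 0.0382). Without WT WD replicate 2, and when only the 2 groups were fitted, 0 passed. Onecut1, itself a gene raised by growth hormone, was at 115, 10.7, 63.3 and 83.2 CPM in the WT HFD livers and 35.8, 8.26, 23.6 and 12.8 CPM in the N-LKO HFD livers. Its fold change was −1.76 ± 0.57 under HFD and −1.64 ± 0.68 under WD, with edgeR adjusted p of 0.0967 and 0.386, and WT HFD replicate 2 was the lowest WT library as in Cish. The median log2 fold change of the list was −0.10, −0.09, 0.11 and −0.16 in the 4 comparisons, where those of all genes were −0.01, 0.01, 0.02 and 0.04.

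Among 22 other male-biased liver genes, 21 were tested. This list and the female-biased list below were chosen with earlier results of these data known. Their genes are also not independent, since Mup12 deviated with Hsd3b5 and Mup7 with Slco1a1 (r of 0.878 and 0.879). The counts and medians of both lists are therefore given as a description. Under HFD, 6 were lower in N-LKO liver, against 2.29% of all genes, and 0 higher, with a median of −0.76. The largest falls were in Serpina4-ps1 (20.1 to 4.23 CPM, −2.22 ± 0.43), Mup12 (113.7 to 28.9 CPM, −1.98 ± 0.43), Cyp7b1, an oxysterol hydroxylase (250 to 113 CPM, −1.15 ± 0.21), and Ugt2b38 (5.37 to 2.47 CPM, −1.12 ± 0.27), with edgeR adjusted p of 0.0180, 0.0277, 0.0171 and 0.0363. This count ran from 0, without N-LKO replicate 1, to 6 on leaving out 1 library. Under WD, 0 passed for N-LKO against WT liver and 0 for tumor against N-LKO liver, with medians of −0.68 and −0.57. At an unadjusted p under 0.05 there were 6 in each, against 12.4% and 18.3% of all genes. Without tumor replicate 1, 5 were lower and 1 higher for tumor against N-LKO liver.

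For tumor against WT liver, 8 male-biased genes were lower, against 6.80% of all genes, and 1, Serpina12, was higher, with a median of −1.45. The lower genes with the largest falls were the major urinary protein genes Mup7 (997 to 3.25 CPM, −8.25 ± 1.97), Mup12 (26.5 to 0.230 CPM, −6.82 ± 1.22), Mup1 (632 to 19.2 CPM, −5.05 ± 1.25) and Mup3 (2988 to 278 CPM, −3.43 ± 0.96), with edgeR adjusted p of 0.0244, 0.0114, 0.0273 and 0.0405. Mup genes are near-identical copies that share reads, so the single members are uncertain. WT replicate 2 held most of the Mup7 counts, at 2743 CPM against 77.1 and 171 CPM in the other WT livers, and without it 1 male-biased gene was lower. The number lower was also 1 without tumor replicate 3, and it was 2 when only the 2 groups were fitted.

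Among 29 female-biased genes, 15 were tested under HFD and 21 under WD. Cyp2a4, a female-biased steroid hydroxylase whose reads can be shared with Cyp2a5, was the only one past the threshold under HFD, at 2.69, 1.75, 1.14 and 2.87 CPM in WT and 17.98, 18.2, 8.39 and 7.01 CPM in the N-LKO livers (2.62 ± 0.38, edgeR adjusted p 0.0076). Over all 13460 genes tested under HFD, 344 were called higher. The median of the 15 was 0.49, against −0.01 over all genes, and 14 of the 15 had values above 0. For N-LKO against WT under WD, 0 of 21 passed and the median was 0.10. For tumor against WT, 1440 of all 17829 genes were called higher and 1213 lower. Of the 21 female-biased genes, 2 were higher and 2 lower, near those shares, with a median of 0.63. The genes called were Cyp2a4 (6.15 ± 1.54), Fmo2 (1.23 ± 0.31), Cyp2c40 (−1.60 ± 0.32) and Prlr, the prolactin receptor (−1.42 ± 0.33), with edgeR adjusted p of 0.0281, 0.0302, 0.0149 and 0.0236. These calls varied with the libraries. Without tumor replicate 2, 0 were higher and 1 lower, without WT replicate 2 the numbers were the same, without WT replicate 1 they were 0 and 3, without tumor replicate 1 they were 2 and 6, and when only the 2 groups were fitted they were 0 and 0. The Cyp2a4 value was set by tumor replicate 2, at 953 CPM against 45.1 and 9.998 CPM in the other tumors. All libraries were from males, so these lists describe genes named for a sex difference and no sex comparison was made.

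**Figure D5:**
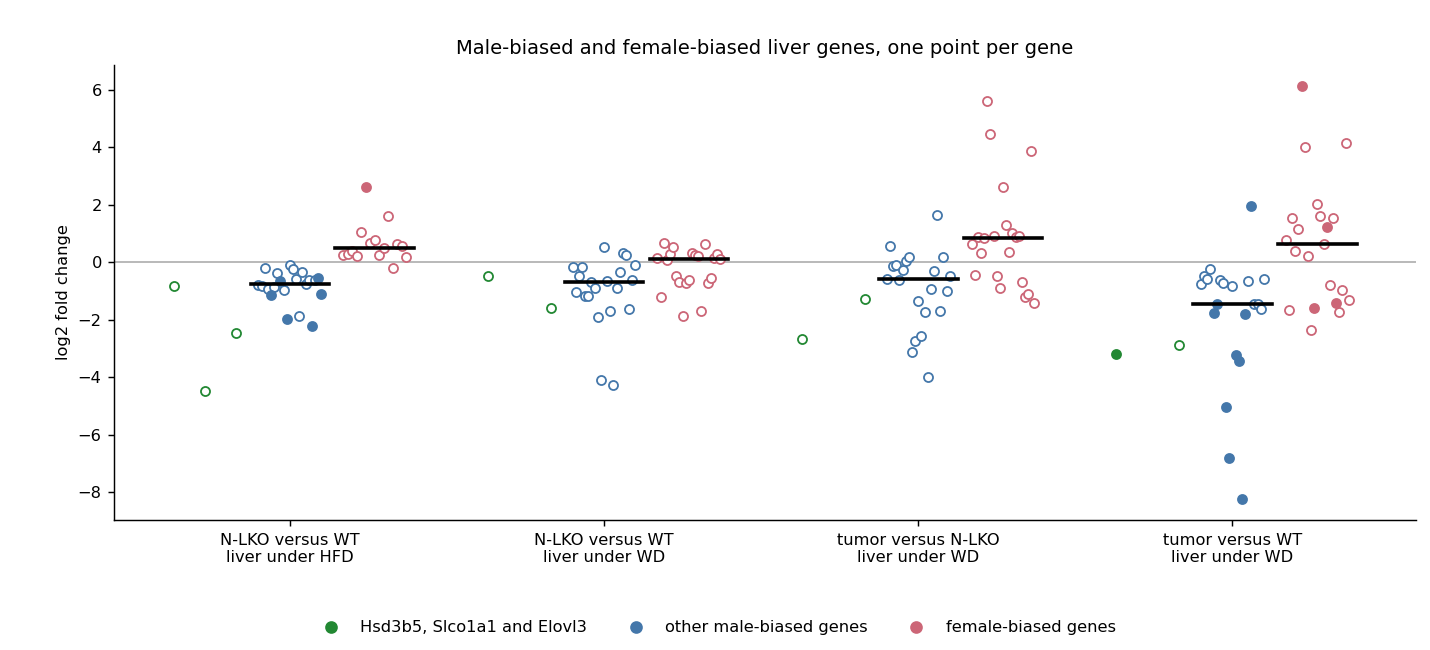
Log2 fold changes of Hsd3b5, Slco1a1 and Elovl3 (green), of other male-biased liver genes (blue) and of female-biased liver genes (red) in the 4 comparisons, with 1 point per gene tested. Filled points had an adjusted p under 0.05 (Hsd3b5 and Slco1a1 under HFD are drawn hollow because they were chosen with those values known), and black lines are the medians of the longer lists. Under HFD the male-biased median is −0.76 and the female-biased median 0.49, and for tumor against WT they are −1.45 and 0.63.

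Markers of other cell types differed in some of these comparisons. Over all genes, 2.29% were called lower under HFD and 6.80% for tumor against WT. Called higher were 344 of 13460 genes under HFD and 1440 of 17829 for tumor against WT. Under HFD, 3 of 6 Kupffer cell genes were lower in N-LKO liver, and their summed level was 105 to 143 CPM in WT and 50.2 to 112 CPM in the N-LKO livers. In tumors against WT under WD, 2 of 6 were lower (421 to 627 CPM in the WT livers, 380 to 447 CPM in the N-LKO livers and 136 to 376 CPM in the tumors). The 5 cholangiocyte genes summed to 20.4 to 38.4 CPM in WT HFD and 54.4 to 99.3 CPM in the N-LKO HFD livers, and to 17.2 to 69.5, 115 to 151 and 195 to 523 CPM in the WT WD livers, N-LKO WD livers and tumors, mostly through Spp1. Of them 1 was higher under HFD and 2 were higher in tumors against WT, whereas Krt19 and Krt7 were at 1.06 CPM or less in every liver. Of 6 endothelial genes 1 was lower under HFD, and 1 was lower and 1 higher in tumors against WT. Of 6 lymphocyte genes 2 were higher in tumors against WT, Cd4 and Cd3g, at a summed level of 8.53 to 13.1 CPM in the tumors and 3.32 to 4.47 CPM in the WT WD livers. No neutrophil gene passed, and of 6 stellate cell genes 1 was lower in tumors against WT. In lists this short, nothing is read from single calls.

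Hepatocyte markers did not pass under HFD (0 of 7, 1 at an unadjusted p under 0.05, against 22.7% of all genes). For N-LKO against WT liver under WD, 0 of 7 passed and 2 had an unadjusted p under 0.05, against 12.4% of all genes. Yet all 7 had values below 0, with a median of −0.46 against 0.01 over all genes. With no overlap between groups, 5 of 7 were lower, against 13.6% of all genes. In that comparison Ghr was at −0.34 and Igf1 at −0.42. Of the 7, 2, Ttr and Hnf4a, were lower in tumors against WT, where 6.80% of all genes were (−0.79 ± 0.19 and −0.75 ± 0.18, edgeR adjusted p 0.0246 and 0.0266). Their summed level was 61591 to 71236 CPM in WT HFD, 57075 to 74280 CPM in N-LKO HFD, 43291 to 53389 CPM in WT WD, 31300 to 39991 CPM in the N-LKO WD livers and 35302 to 59734 CPM in the tumors. The part of these markers in the members' values was not tested. Fold changes also followed transcript length under HFD (Spearman −0.354 across 13211 genes, which are not independent), and the median in the length bins of the members ran from −0.18 to 0.12. Under WD they followed GC content, at Spearman −0.280 for N-LKO against WT and −0.170 for tumor against WT. The interaction followed both length (0.335) and GC content (−0.283). Igfals had the highest GC content of the members, at 58.9%. With an offset for length and GC content, Igfals did not pass under HFD (−0.52, edgeR adjusted p 0.0539), and Ghr and Slco1a1 passed for tumor against WT (−0.90 and −3.33, edgeR adjusted p 0.0220 and 0.0364). Igf1 under HFD, whose length bin had the median of −0.18, had its highest adjusted p of all alternatives with this offset.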

How the data were processed

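RNA was sequenced from 17 mouse liver and tumor libraries. The deposited tables hold estimated counts per gene, which the authors made with an expectation-maximization step that splits reads between genes, so values need not be whole. The submitters' processing notes list STAR, Partek and mm9, the methods describe another aligner, and gene positions in the tables match GRCm38, which is the build printed here.

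Counts were rounded to whole numbers and fitted with edgeR 4.0.16 (TMM scaling, filterByExpr, quasi-likelihood test, Benjamini-Hochberg adjusted p under 0.05), for 8 HFD libraries alone, 9 WD libraries together and the 14 livers for the interaction. The p-values measure the spread between libraries that the labels call biological replicates. Alternatives used DESeq2 1.42.0 and limma 3.58.1, other scalings and filters, a replicate block, a length and GC offset, and leaving out each library. Levels are TMM-scaled CPM, and log2 CPM used a prior count of 2. Covariation was tested with 100000 permutations within groups, two-sided. Scripts were tested on simulated data.

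The members, gene lists and tests were chosen with earlier results of these data known. Genes of lists were named by a fixed rule, up to 4 by size of change among those past the threshold, and some genes that the rule names are not reported here. Bcl6 and Cyp2a4 per-library values, and the libraries left out in the text, were singled out after their values were seen. R 4.3.3 and Python 3.11.15 were used.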

Additional observations from a re-analysis of the deposited data

Results flagged for a closer look

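Hsd3b5 in N-LKO HFD liver replicate 4, at 7.18 CPM, lay far from the other libraries of its group, which were at 0.248, 0.411 and 0.760 CPM. Of 20 groups of 4 libraries examined in this way on the CPM scale, 1 was singled out. Chance singles out about 1 in 20 if values are normally distributed, which CPM need not be. Values on the log2 scale were not examined in this way, so the flag holds for CPM only. Slco1a1 was also highest of its group in that library, at 75.3 CPM. Without the library, the log2 fold change of Hsd3b5 under HFD was −6.78 in place of −4.49.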

How the results depend on the processing

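Of 866 fold changes of the 10 genes under alternatives, 823 kept their side of the threshold, 28 lost a call and 15 gained one. Another sign was taken by 46 of the 823, none of them called. Over all genes, DESeq2 called 1000 under HFD, 100 under WD, 1021 for tumor against N-LKO liver and 981 for the interaction, against 652, 0, 89 and 257 with edgeR. Among members it called 1 under WD and 2 for tumor against N-LKO liver. For tumor against WT, DESeq2 called 6 members and 3646 genes and limma-voom 5 members and 2391 genes, against 4 and 2653 with edgeR. With the length and GC offset, 277 genes were called under HFD and 1 for the interaction. For tumor against N-LKO liver, 58 genes were called with the 1 CPM filter, 18 with limma-voom and 29 when only the 2 groups were fitted. Fitting only 2 groups gave 6 genes under WD, and 705 genes and 2 members for tumor against WT, where Igf1 and Igfals were lost. The causes were not tested.

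Leaving out 1 library gave 179 to 597 genes and 0 to 3 members under HFD (0 members without N-LKO replicate 1 or 3), and 0 to 1 genes and 0 members under WD. It gave 3 to 2193 genes and 0 to 2 members for tumor against N-LKO liver, 569 to 3819 genes and 0 to 5 members for tumor against WT, and 22 to 330 genes and 0 members for the interaction. The highest counts with tumors came without tumor replicate 1. Of the 6 pairs, 1 to 3 passed. Libraries with the same replicate number deviated together with correlations of −0.12 to 0.108, so the numbers were not treated as pairing. The sample descriptions carry other numbers, so this cannot show whether a tumor and an N-LKO liver came from the same mouse. With the replicate block, 36 genes were called for tumor against N-LKO liver and 0 for the interaction, and Socs2 was lost for tumor against WT (−1.11, edgeR adjusted p 0.0576). Hsd3b5 under WD was at a few counts in most libraries, and the smallest difference that could be detected was not tested.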
